A study of Mus musculus with 8 samples.

Results

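Peroxisomes and the plasmalogens that start in them were followed at the mRNA level through 28 genes, a small part of the 23427 entries in the expression table. The genes were taken by symbol: 13 *Pex* genes of peroxisome biogenesis, 2 transporters, 4 enzymes of beta-oxidation, 2 of alpha-oxidation and racemization, 4 of ether lipid synthesis, catalase, and 2 other membrane proteins. All 28 were found in the table. The cells were primary oligodendrocyte precursor cells (OPCs) of wild-type (WT) C57BL/6J mice. According to the methods, 3 pups of postnatal day 7 gave the cortical tissue, and the cells were captured on a plate coated with an antibody against PDGFRα. Differentiation into oligodendrocytes (OLs) was started by a change to medium with the thyroid hormone T3 and, in the methods, without PDGF-AA. The groups are Day 0, Day 1, Day 2 and Day 3 of that culture, all of the same genotype and strain, with 2 libraries per day and 8 in all. The labels and the methods describe the culture medium and the RNA kit differently. Values are FPKM, fragments per kilobase of transcript and per 1e6 mapped fragments, so that levels of different genes can be set side by side. Depth was estimated from the spacing of low values and lay between 952000 fragments (Day 3 replicate 2) and 1526000 (Day 0 replicate 1). A value near 1 FPKM therefore stands for only a handful of fragments.

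Peroxisomes import their enzymes fully folded from the cytosol, shorten very long and branched fatty acids, and break down hydrogen peroxide. They also carry out the opening reactions of ether lipid synthesis, in which a fatty alcohol is joined to a glycerol backbone, and the lipid is then finished in the endoplasmic reticulum as a plasmalogen. Plasmalogens are abundant in myelin, and inherited loss of peroxisome assembly damages white matter.

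Marker genes of the cell types were read first, as a check of the labels. Summed over *Pdgfra*, *Cspg4* and *Ptprz1*, OPC markers stood at 769 and 756 FPKM on Day 0, 222 and 125 by Day 1, 89.9 and 45.5 on Day 2, and 75.8 and 45.9 at Day 3. The sum was high in both Day 0 libraries and low from Day 2 on, with *Pdgfra* its most abundant gene on Day 0 and *Ptprz1* from Day 1 on. The 6 OL markers, led by *Mbp*, summed to 1074 and 787 FPKM on Day 0, 2787 and 3511 by Day 1, 9900.4 and 14225 on Day 2, and 18963 and 26846 at Day 3. No day overlapped another in this sum. In bulk RNA, fewer cells of a type and less RNA per cell cannot be told apart. Astrocyte markers differed between the replicates: the 8 genes summed to 120.3, 167, 131 and 148 FPKM in replicate 1 from Day 0 to Day 3, against 354, 522, 641 and 952 in replicate 2. *Aldoc* was the most abundant of them in replicate 1 and *Gfap* in replicate 2, *Gjb6* was listed at 0 in all 8 libraries, and the other 7 were higher in replicate 2 on 4 of 4 days. Of the 28 peroxisome genes, *Pex19* was higher in replicate 2 on Day 2 and Day 3 and all but equal in both replicates on Day 0 and Day 1, and *Cat* was higher in replicate 1 on 4 of 4 days. The part of astrocyte RNA in the results was not tested, and the Day 0 to Day 3 changes called among the 28 genes are therefore also given within each replicate. The 5 neuron markers, mostly *Tubb3*, summed to 64.4, 79.7, 131 and 233 FPKM in replicate 1 and to 31.4, 40.2, 60.0 and 115 in replicate 2. The climb of this sum was that of *Tubb3*, whereas *Snap25* (2.15 and 8.46 FPKM on Day 0, 0 and 1.48 on Day 3) and *Syt1* (2.05 and 1.72, then 0.969 and 1.10) were lower on Day 3 and *Stmn2* stayed under 1 FPKM. Of the 6 microglia markers, *Aif1*, *Cx3cr1*, *Csf1r*, *C1qa* and *Tmem119* were listed at 0 in every library, and the sum, all from *P2ry12*, ranged from 0 to 2.51 FPKM. Of the 4 endothelial markers, *Cldn5*, *Cdh5* and *Tek* were at 0 in every library and the sum reached 0.282 FPKM. The 3 mural markers reached 2.20 FPKM, mostly *Acta2*, with *Rgs5* at 0 throughout.

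**Figure D1:**
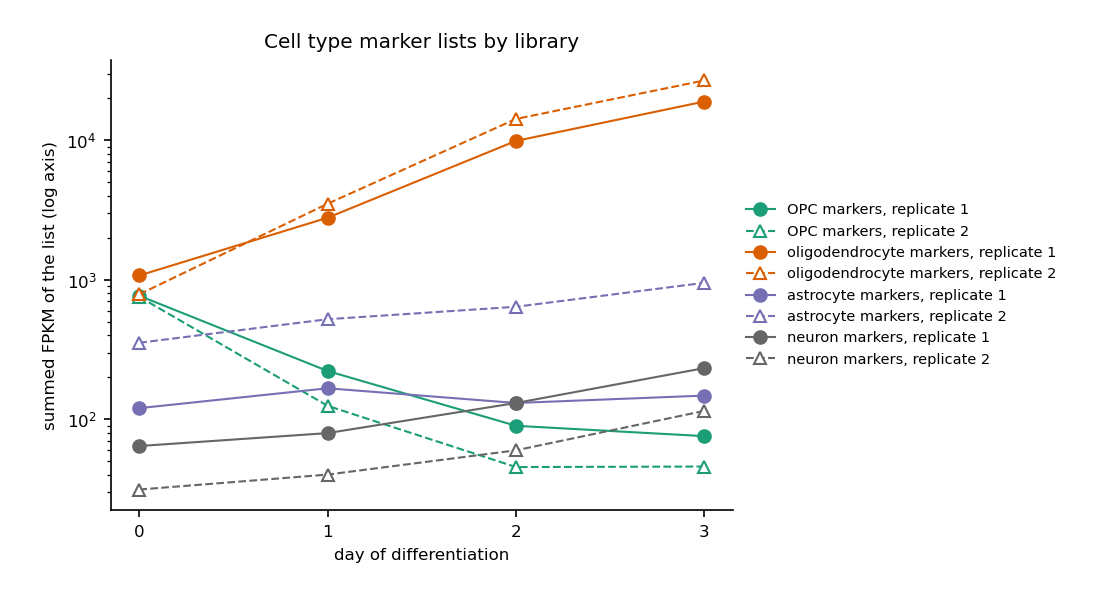
Summed FPKM of the marker genes of OPCs, OLs, astrocytes and neurons (log axis) in each of the 8 libraries by day, replicates 1 and 2 as separate symbols. OL markers lay between 787 and 26846 FPKM and climbed on each day, OPC markers dropped after Day 0, and the astrocyte sum was higher in replicate 2 on each day (354 against 120.3 on Day 0, 952 against 148 on Day 3).

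Over the 3 days, the genes that rose were those for fatty alcohol and ether lipid synthesis (*Far1*, *Agps*), the thiolase and lipid carrier *Scp2*, catalase, the ubiquitin ligase *Pex2* and the *Pex5*-related *Pex5l*. Those that fell were *Hsd17b4*, *Phyh* and *Pex11a*. The comparison of Day 3 with Day 0 asks which of the genes differ between the precursor and the differentiated culture. It was run with limma on log2(FPKM + 1) over 12208 genes that reached 1 FPKM in at least 2 libraries, and a gene was called at an adjusted p under 0.05. Of the 28 genes 27 passed that filter, and *Abcd2* did not. On this scale 6 of the 27 were called higher (22.2%), beside 1460 of all genes tested (12%). Another 3 were called lower (11.1%), beside 3207 of all genes (26.3%). The median log2 difference was 0.16 over the 27 and -0.31 over all genes tested. Since the authors' table has no further scaling between libraries, a median ratio scaling was also tried: it moved the median of all genes from -0.31 to -0.04, so the changes called among the 28 genes from Day 0 to Day 3 are given below both as fitted and relative to the median of all genes. Genes outside the 28 are given as fitted, and their log2 differences over the same days lie 0.31 further up when set against that median. Under that scaling the split of higher against lower calls went from 1460 and 3207 to 2135 and 2047 for all genes, and from 6 and 3 to 9 and 1 for the peroxisome genes. The added rises were *Pex19*, *Acox3* and *Acaa1a*, and *Pex11a* was the 1 fall kept. Quantile normalization also left 1 fall, again *Pex11a*. The falls rest on few libraries: limma called 1 without Day 0 replicate 1 (*Hsd17b4*), 0 without Day 0 replicate 2 (2 at an unadjusted p under 0.05) and 1 without Day 3 replicate 2 (*Phyh*). The log2(FPKM + 1) scale understates the change of genes with low values. The p-values measure the spread between these 8 libraries only; the methods call the replicates independent, and which libraries share a cell preparation is not given in the sources used here.

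Few of these changes could be placed on a single day by the test. From Day 0 to Day 1, limma called 2 of 27 genes higher, *Far1* and *Scp2* (7.41%, against 615 or 5.04% of all genes), and 0 lower, against 923 or 7.56% of all genes. At an unadjusted p under 0.05 there were 6 higher and 1 lower. Without Day 0 replicate 1, and likewise without Day 0 replicate 2, *Far1* was the 1 gene still called. From Day 1 to Day 2, *Scp2* alone was called higher (3.70%, against 264 or 2.16%) and 0 were called lower (211 or 1.73% of all genes), with 3 higher and 1 lower at an unadjusted p under 0.05 in limma. From Day 2 to Day 3, limma called 0 higher and 0 lower, against 30 (0.246%) and 6 (0.0491%) of all genes, and 2 and 1 passed an unadjusted p of 0.05. With the replicate number as a block, 1 gene, *Pex5l*, was called higher in that last step, beside 119 of all genes. The moderated F test for any difference among the 4 days called 6 of 27 (22.2%), *Agps*, *Cat*, *Far1*, *Pex5l*, *Phyh* and *Scp2*, beside 4292 of all genes (35.2%). With the block it called 9, adding *Amacr* (adjusted p = 0.0451), *Pex11a* (0.0273) and *Pex2* (0.0230). The share of all genes called by this blocked F test is not given here, so the 9 have no background beside them. From Day 0 to Day 3 the block raised the calls over all genes, from 1460 to 1617 higher and 3207 to 3551 lower. All of these comparisons draw on the same 8 libraries, and those against Day 0 share the Day 0 pair. In all, 18 tested genes passed in none of these 4 comparisons between days. Their log2 differences from Day 0 to Day 3 ran from -1.30 (*Amacr*) to 0.46 (*Acox3*), with adjusted p between 0.0533 and 0.840 in limma.

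**Figure D2:**
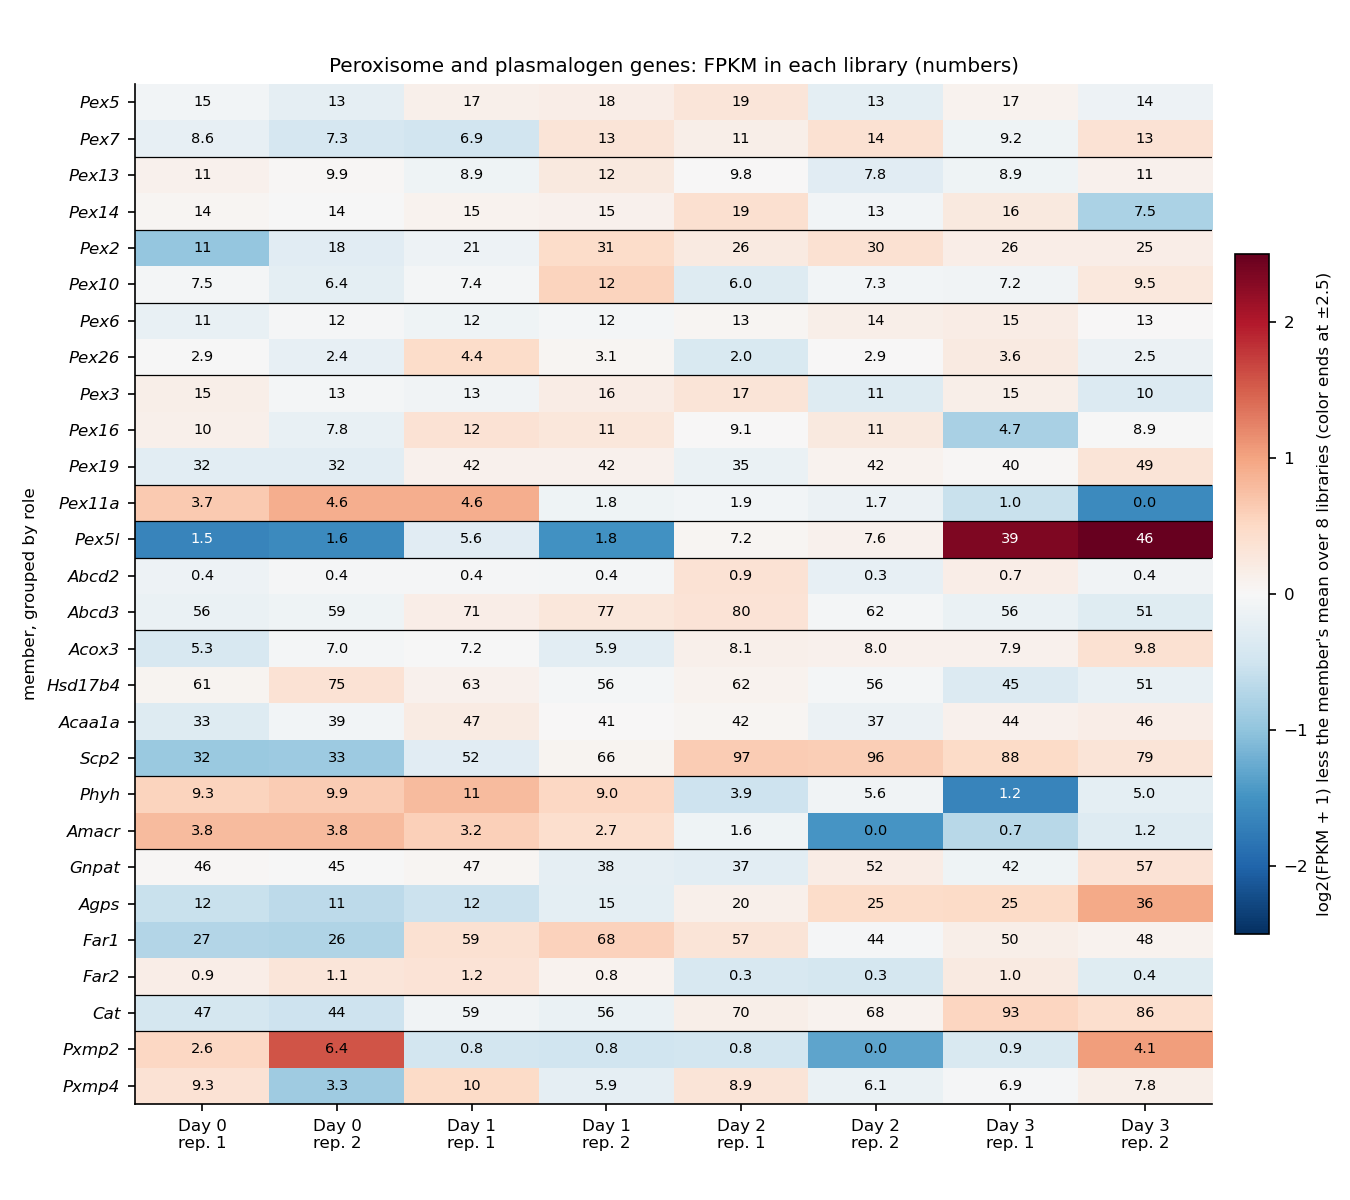
FPKM of each of the 28 genes (printed in the cells) in each of the 8 libraries, genes grouped by role; color gives log2(FPKM + 1) less the gene's own mean over the libraries. *Pex5l* turned from 1.54 and 1.65 to 39.4 and 46.3 FPKM, while genes such as *Pex6* and *Gnpat* kept close to their own mean on every day.

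**Figure D3:**
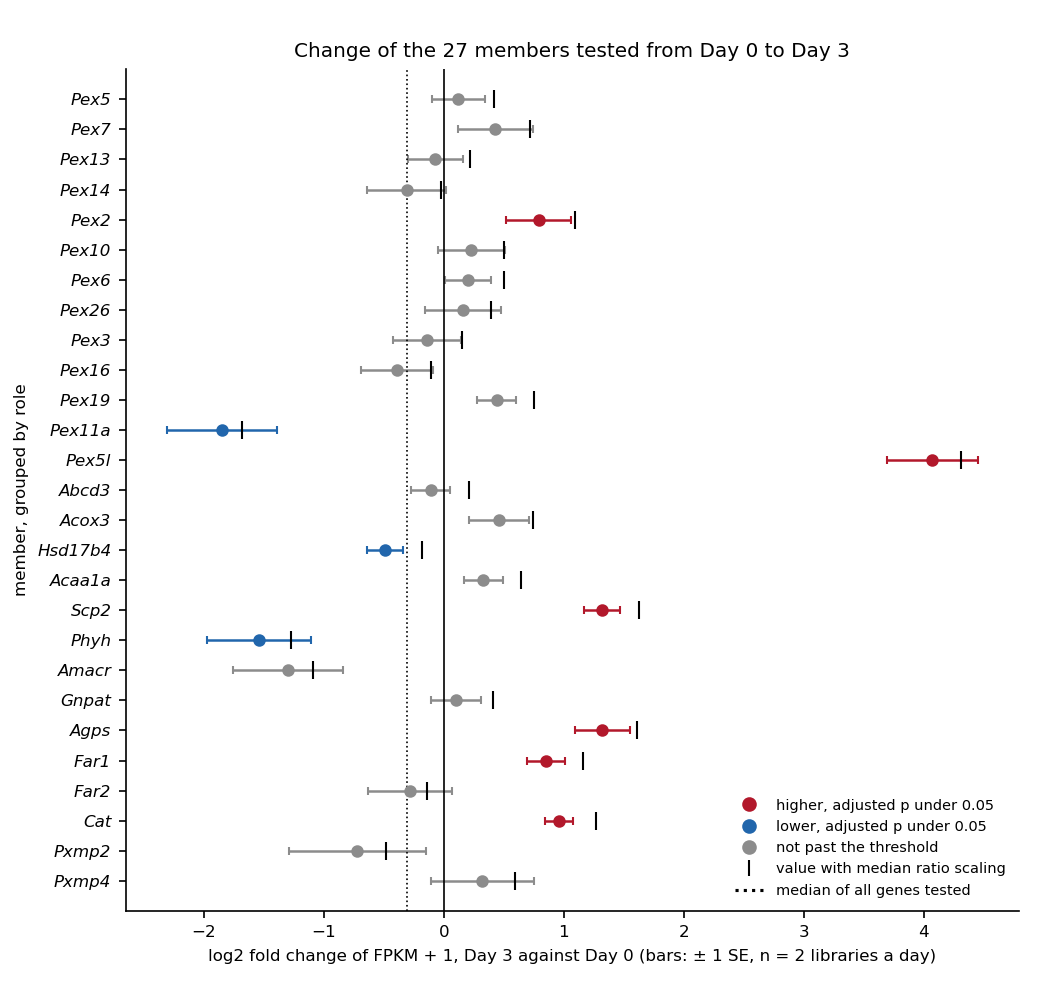
Log2 fold change from Day 0 to Day 3 with its SE for the 27 tested genes, by role, with the genes past the threshold marked and the median of all 12208 genes (-0.31) drawn as a line. The called genes ran from -1.85 (*Pex11a*) to 4.07 (*Pex5l*).

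Sequence upstream of annotated starts of transcription was examined for the genes that passed a test, since these moved in the same culture over the same days. RefSeq promoter windows of GRCm38.p6, 250 bases before the start, were found for 21 of the 28 genes (25 windows), among them 6 of the 9 called genes, while *Pex2* and *Pex5l* were among those with none. These 6 lie at chr2:75831927-75832176 (+ strand) for *Agps*, chr7:113513584-113513833 (+) for *Far1*, chr4:108118548-108118797 (-) for *Scp2*, chr2:103485154-103485403 (-) for *Cat*, chr2:4918746-4918995 (+) for *Phyh* and chr7:79743132-79743381 (-) for *Pex11a*. The window of *Cat* holds 7 bases of its own annotated exon and that of *Pex11a* holds 21 exonic bases of the neighbor *Wdr93*; the other 4 hold no annotated exon. The window of *Scp2* lies inside the gene as annotated, before an internal start, and none was found at its outermost start. Capitals mark the hexamer AGGTCA, which many nuclear receptors bind, the GC box GGGCGG and the CCAAT box, each on either strand.
Agps: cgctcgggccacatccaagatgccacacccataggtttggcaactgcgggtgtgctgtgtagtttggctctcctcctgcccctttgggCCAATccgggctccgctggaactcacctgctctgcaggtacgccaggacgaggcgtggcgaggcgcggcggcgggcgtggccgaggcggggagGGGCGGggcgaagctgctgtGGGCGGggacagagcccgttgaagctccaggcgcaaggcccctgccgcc
Far1: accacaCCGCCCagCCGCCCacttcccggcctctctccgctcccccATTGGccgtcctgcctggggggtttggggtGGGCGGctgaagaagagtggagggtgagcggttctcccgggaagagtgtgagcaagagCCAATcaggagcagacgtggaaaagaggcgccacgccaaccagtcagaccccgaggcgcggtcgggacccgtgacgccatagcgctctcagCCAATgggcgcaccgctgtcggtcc
Scp2: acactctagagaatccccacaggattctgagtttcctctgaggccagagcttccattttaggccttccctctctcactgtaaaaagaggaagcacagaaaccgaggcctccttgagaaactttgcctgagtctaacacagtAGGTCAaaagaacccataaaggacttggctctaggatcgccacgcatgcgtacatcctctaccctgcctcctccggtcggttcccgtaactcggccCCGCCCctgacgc
Cat: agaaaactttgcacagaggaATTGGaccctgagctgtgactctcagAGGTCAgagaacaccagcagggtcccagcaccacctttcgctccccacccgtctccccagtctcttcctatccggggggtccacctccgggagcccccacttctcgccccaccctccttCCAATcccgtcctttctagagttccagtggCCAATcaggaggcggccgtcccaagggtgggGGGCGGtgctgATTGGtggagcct
Phyh: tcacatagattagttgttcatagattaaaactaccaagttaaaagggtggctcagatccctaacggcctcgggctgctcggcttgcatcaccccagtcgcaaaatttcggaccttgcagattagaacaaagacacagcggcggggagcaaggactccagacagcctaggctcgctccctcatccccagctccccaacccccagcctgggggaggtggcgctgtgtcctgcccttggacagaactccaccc
Pex11a: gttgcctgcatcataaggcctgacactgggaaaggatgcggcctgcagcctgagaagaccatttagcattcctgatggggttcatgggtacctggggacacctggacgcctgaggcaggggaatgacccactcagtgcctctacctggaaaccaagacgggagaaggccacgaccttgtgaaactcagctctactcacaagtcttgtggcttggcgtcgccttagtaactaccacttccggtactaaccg
The hexamer was found in 2 of the 21 genes with a window, *Scp2* (103 bases before that internal start) and *Cat* (198 bases before the start). By windows this is 8% of the 25, against 14.0% of the 32851 RefSeq windows of the same length. A pair of these hexamers in the same direction with 1 base between them (DR1, the arrangement bound by PPAR and RXR) or with 4 bases (DR4, thyroid hormone receptor and RXR) was in 0 of the 25 windows, and in 0.0335% and 0.0152% of all windows. The GC box was in 15 of the 21 genes (64.0% of their windows, 32.7% of all windows) and the CCAAT box in 8 (36.0% against 33.8%). *Agps* has 2 GC boxes and 1 CCAAT box, *Far1* has 3 of each, and *Cat* has 1 GC box and 4 CCAAT boxes. The windows of the falling genes *Phyh* and *Pex11a* hold none of the 3 motifs. A match is a run of letters and no measure of binding.

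Ether lipid synthesis starts with 4 of the genes. Of these, limma called 2 higher from Day 0 to Day 3, *Far1* and *Agps* (12% of all genes), and 0 lower (26.3% of all genes). *Far1* (GRCm38 chr7:113513834-113571511, + strand) encodes the fatty acyl-CoA reductase that supplies the fatty alcohol and is regarded as the rate-limiting step. Its values were 26.9 and 26.2 FPKM on Day 0, 59.0 and 68.1 by Day 1, 56.9 and 43.9 on Day 2, and 49.8 and 47.9 at Day 3. Both Day 0 libraries lay below the other 6, the pair of Day 1 lay above the rest, and Day 2 and Day 3 overlapped. Its log2 fold change was 1.22 (SE 0.16) from Day 0 to Day 1, with an adjusted p of 0.00208 in limma. From Day 0 to Day 3 it was 0.85 (SE 0.16, limma adjusted p = 0.00412), 1.17 above the median of all genes, with 0.87 within replicate 1 and 0.84 within replicate 2. The steps after Day 1 were -0.34 (adjusted p = 0.262 in limma) and -0.03 (0.956). The rise was thus complete by Day 1.

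*Agps* (chr2:75832177-75931350, + strand) encodes the alkylglycerone phosphate synthase that exchanges the acyl chain for the fatty alcohol and so makes the ether bond. It was at 11.9 and 11.0 FPKM on Day 0, 12 and 14.9 by Day 1, 19.6 and 25.1 on Day 2, and 25.2 and 35.5 at Day 3. Each later pair lay above the one before, with no overlap between days. The log2 fold change between Day 0 and Day 3 was 1.32 (SE 0.23), 1.63 above the median of all genes, and its adjusted p in limma was 0.00264. It was 1.02 within replicate 1 and 1.61 within replicate 2. No single step passed the test (0.21, 0.69 and 0.41 with adjusted p of 0.615, 0.126 and 0.460 in limma).

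The acyltransferase *Gnpat* (chr8:124863033-124890057, + strand), which acts before *Agps* and forms a complex with it, had 45.9 and 44.8 FPKM on Day 0, 46.7 and 38.5 by Day 1, 37.4 and 51.6 on Day 2, and 41.5 and 57.4 at Day 3. All 4 days overlapped, with the lowest and the next to highest value both on Day 2. The log2 difference between Day 3 and Day 0 was 0.10 (SE 0.21, limma adjusted p = 0.724), 0.42 above the median of all genes and 0.41 with median ratio scaling (0.203). It was 0.33 without Day 3 replicate 1 (0.295) and -0.13 without Day 3 replicate 2 (0.719). *Far2*, the second fatty acyl-CoA reductase (chr6:148047259-148182758, + strand), was at 0.927 and 1.13 FPKM on Day 0, 1.17 and 0.837 by Day 1, 0.305 and 0.276 on Day 2, and 1.02 and 0.385 at Day 3. Day 2 was low in both libraries and Day 3 overlapped Day 0 (log2 difference -0.28, SE 0.35, limma adjusted p = 0.559). Relative to the median of all genes it was 0.04, and without Day 3 replicate 1 or replicate 2 the fitted value was -0.55 (adjusted p = 0.356 in limma) or 0.00 (0.999). At about 1 FPKM or less it was far below *Far1* on every day, and 837 of its exonic bases (11.4%) overlap *Ergic2* on the other strand, which reached 21 FPKM. Whether fragments were counted by strand is not given in the sources used here.

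The later enzymes of plasmalogen synthesis and breakdown were taken as a list of 11 symbols, of which 10 were in the table and tested. The list is not specific to plasmalogens: its CDP-ethanolamine genes (*Etnk1*, *Pcyt2*, *Ept1* and *Cept1*) also serve other ethanolamine lipids. Its counts are therefore no measure of plasmalogen synthesis alone. From Day 0 to Day 3, limma called 5 of the 10 higher (12% of all genes) and 0 lower (26.3% of all genes; 0 of the 10 also at an unadjusted p under 0.05), with a median log2 difference of 0.65. On the first day alone 3 rose, *Ept1*, *Pcyt2* and *Tmem189* (5.04% of all genes). *Tmem189*, the desaturase that forms the vinyl ether bond that defines a plasmalogen, was at 31.8 and 25.9 FPKM on Day 0, 60.9 and 69.0 by Day 1, 82.6 and 88.8 on Day 2, and 106 and 91.5 at Day 3. Its days did not overlap, and its log2 fold change over the 3 days was 1.74 (SE 0.15, limma adjusted p = 1.51e-04). *Pcyt2*, which makes CDP-ethanolamine, went from 56.1 and 44.0 FPKM on Day 0 to 163 and 199.9 on Day 1, then 155 and 225, then 179 and 176. All of its rise was on Day 1 (1.84, adjusted p = 0.00129 in limma), and the change by Day 3 was 1.82 (SE 0.20, adjusted p = 3.69e-04). The 2 transferases that use CDP-ethanolamine rose less. *Ept1* had 11.7 and 8.55 FPKM on Day 0 and 24.5 and 17.7 on Day 3 (log2 fold change 0.99, SE 0.24, limma adjusted p = 0.0137), and this call was lost without Day 0 replicate 2 (0.78, adjusted p = 0.0947) or Day 3 replicate 1 (0.76, 0.0720). *Cept1* had 5.64 and 6.17 FPKM on Day 0 and 12.9 and 12.8 on Day 3 (1.00, SE 0.21, limma adjusted p = 0.00685). The fifth, the ethanolamine kinase *Etnk1*, was at 31.3 and 35.3 FPKM on Day 0 and 51.2 and 60.7 on Day 3 (0.73, adjusted p = 0.00848 in limma), and was not called without Day 0 replicate 1 (0.64, 0.0650) or Day 3 replicate 2 (0.61, 0.0523). It was higher in replicate 2 on 4 of 4 days and changed by 0.69 within replicate 1 and 0.76 within replicate 2. The other 5 genes did not pass, with log2 differences from -1.20 to 0.57, and the ends of that range are both lysoplasmalogenases. *Tmem86b* had 8 and 10 FPKM on Day 0 and 15.8 and 12 on Day 3 (0.57, adjusted p = 0.0951 in limma, or 0.0197 with median ratio scaling at 0.85). *Tmem86a* had 3.64 FPKM in both Day 0 libraries and 3.07 and 0 on Day 3. Its log2 difference of -1.20 (adjusted p = 0.189 in limma) was -2.21 and called without Day 3 replicate 1 (0.0232) and -0.19 without Day 3 replicate 2 (0.832).

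**Figure D4:**
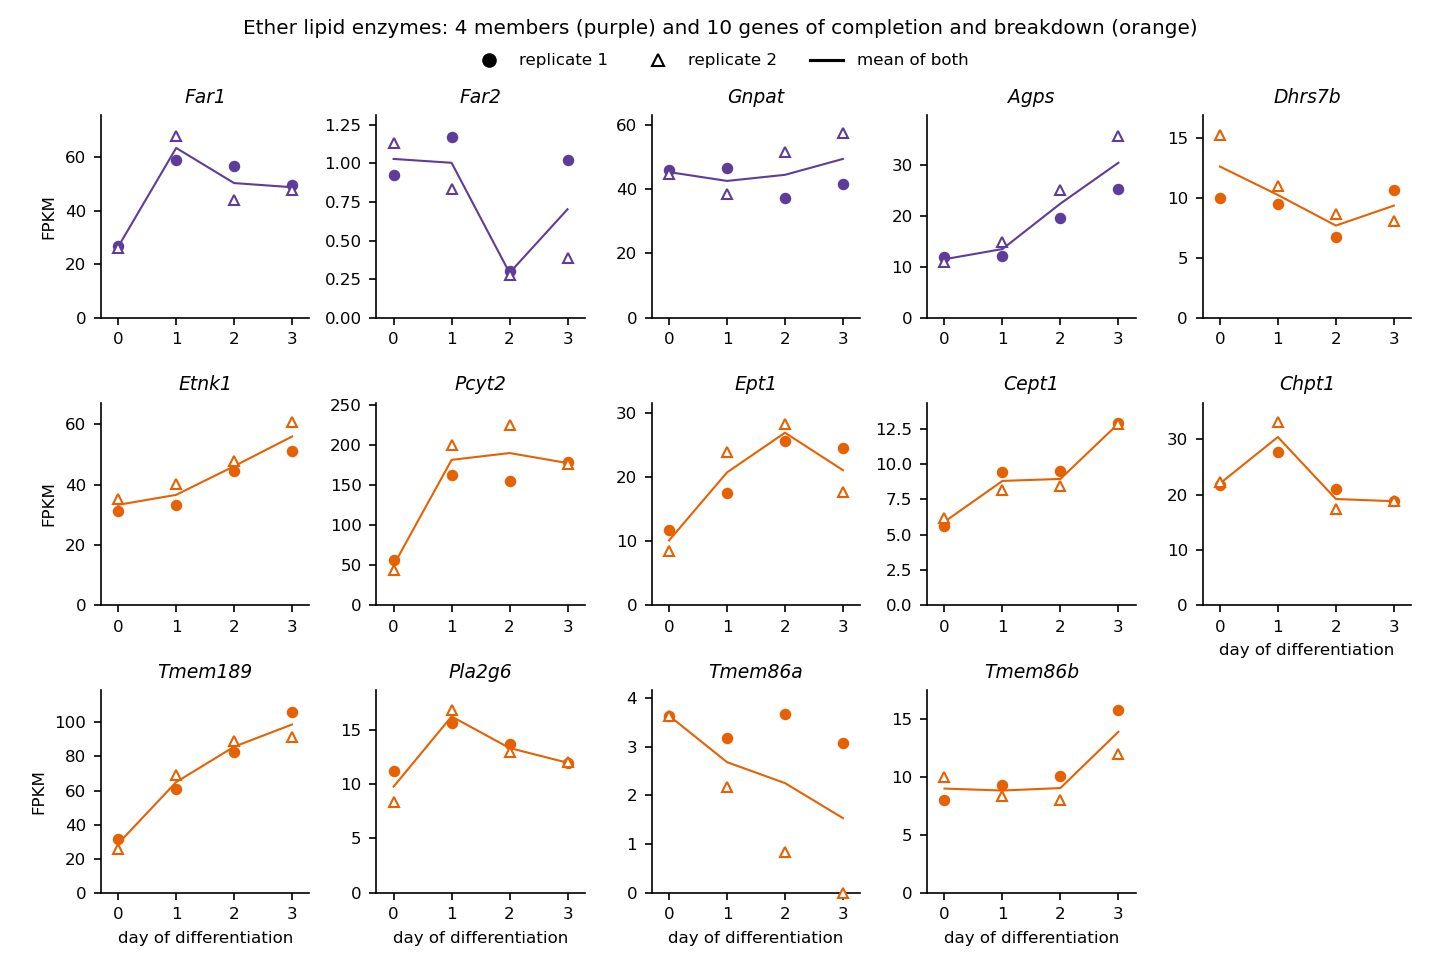
FPKM by day for the 4 ether lipid genes and the 10 genes listed for later plasmalogen steps, not all specific to plasmalogens. Each gene has 1 panel with its own axis from 0, points for the 2 libraries of a day and a line through their means. *Far1* and *Pcyt2* stepped up on Day 1, *Agps* and *Tmem189* climbed through Day 3, and *Gnpat* overlapped between all days.

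In beta-oxidation, limma called 1 of 4 genes higher and 1 lower from Day 0 to Day 3, beside 12% and 26.3% of all genes. *Scp2* (chr4:108043839-108144998, - strand) encodes both a thiolase for branched chains and the sterol carrier protein, a lipid carrier. The values are per gene and cannot assign a change to the thiolase or to the carrier. Its values were 32.5 and 33.0 FPKM on Day 0, 51.7 and 65.5 by Day 1, 97.4 and 96.4 on Day 2, and 88.4 and 78.8 at Day 3. The pairs of all 4 days were apart, with Day 2 highest and Day 3 between Day 1 and Day 2. From Day 0 to Day 3 its log2 fold change was 1.32 (SE 0.15, limma adjusted p = 3.68e-04), 1.64 above the median of all genes, with 1.41 within replicate 1 and 1.23 within replicate 2. Of this, 0.81 came on Day 1 (SE 0.15, limma adjusted p = 0.00951). That call was lost without Day 0 replicate 1 (0.80, adjusted p = 0.0755), Day 0 replicate 2 (0.82, 0.0688) or Day 1 replicate 2 (0.64, 0.0629). The step to Day 2 added 0.73 (SE 0.15, limma adjusted p = 0.0392), 0.91 above the median of all genes for that step. It passed in 9 of 17 alternatives. Among the libraries, leaving out Day 0 replicate 1 (0.73, adjusted p = 0.0769), Day 0 replicate 2 (0.73, 0.0766), Day 1 replicate 1 (0.56, 0.176), Day 2 replicate 1 (0.72, 0.107) or Day 2 replicate 2 (0.73, 0.203) ended the call. The last step was -0.21 (adjusted p = 0.570 in limma).

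*Hsd17b4* (chr18:50128201-50196269, + strand), the bifunctional hydratase and dehydrogenase of the pathway, was the most abundant of the 28 genes on Day 0. It had 61.2 and 75.3 FPKM on Day 0, 62.9 and 55.9 by Day 1, 61.5 and 56.2 on Day 2, and 45.4 and 50.9 at Day 3. The Day 3 libraries lay below all others, while Day 0, Day 1 and Day 2 overlapped. The log2 fold change between Day 0 and Day 3 was -0.49 (SE 0.15, limma adjusted p = 0.0356), with -0.42 within replicate 1 and -0.55 within replicate 2. It was -0.17 relative to the median of all genes, and with median ratio scaling it was -0.18 with an adjusted p of 0.417. Without Day 0 replicate 2 (-0.34, adjusted p = 0.226), Day 3 replicate 1 (-0.41, 0.132) or Day 3 replicate 2 (-0.57, 0.0593) it was not called either. The other enzymes were the branched chain oxidase *Acox3*, between 5.27 and 9.76 FPKM over the 8 libraries, and the thiolase *Acaa1a*, between 32.6 and 47.3. Their log2 differences from Day 0 to Day 3 were 0.46 and 0.33, with adjusted p of 0.174 and 0.129 in limma. Under median ratio scaling both were called, at 0.74 (adjusted p = 0.0497) and 0.64 (0.0122).

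The transporters that bring acyl-CoA into the organelle showed no called change. *Abcd3* (chr3:121758774-121815302, - strand), a major protein of the peroxisome membrane that carries branched chain and dicarboxylic substrates, had 56.4 and 59.0 FPKM on Day 0, 71.2 and 77.1 by Day 1, 80.2 and 61.6 on Day 2, and 56.1 and 51.0 at Day 3. The Day 1 pair and 1 Day 2 library were high, and Day 3 was close under Day 0. The log2 difference from Day 0 to Day 3 was -0.11 (SE 0.16, limma adjusted p = 0.613), 0.05 when each library was rescaled to the same FPKM sum and 0.21 with median ratio scaling. Without Day 3 replicate 1 or replicate 2 it was -0.17 or -0.04 (adjusted p = 0.514 and 0.901 in limma). *Abcd2* (chr15:91145871-91191799, - strand), a carrier of very long chain acyl-CoA, was at 0.353 and 0.441 FPKM on Day 0, 0.442 and 0.423 by Day 1, 0.889 and 0.271 on Day 2, and 0.662 and 0.377 at Day 3. These values stand for about 2 to 6 fragments per library, the days overlapped, and no test was made.

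Both genes of alpha-oxidation and racemization had lower FPKM on Day 3. The test called 1 of them, the hydroxylase, beside 26.3% of all genes called lower. *Phyh* (chr2:4919019-4938730, + strand) encodes the phytanoyl-CoA hydroxylase that opens the breakdown of phytanic acid. It was at 9.29 and 9.95 FPKM on Day 0, 11.1 and 9.02 by Day 1, 3.90 and 5.60 on Day 2, and 1.24 and 4.96 at Day 3. Day 0 and Day 1 were high and overlapped, and Day 2 and Day 3 were low and overlapped. The log2 fold change between Day 0 and Day 3 was -1.54 (SE 0.43, limma adjusted p = 0.0239), -1.22 relative to the median of all genes, with -2.20 within replicate 1 and -0.88 within replicate 2. It rests on about 21 and 18 fragments on Day 0 and 2 and 7 on Day 3. Leaving out Day 3 replicate 1 brought it to -0.83 (adjusted p = 0.0819 in limma), and it was also lost without Day 0 replicate 1 (-1.58, 0.0873) or Day 0 replicate 2 (-1.49, 0.102). With median ratio scaling it was -1.27 with an adjusted p of 0.0624. The racemase *Amacr*, which readies branched chains for beta-oxidation, had 3.80 FPKM in both Day 0 libraries, 3.17 and 2.73 by Day 1, 1.59 and 0 on Day 2, and 0.712 and 1.22 at Day 3. Day 0 and Day 1 lay above Day 2 and Day 3 in each library, 1 library was listed at 0, and the log2 difference of -1.30 had an adjusted p of 0.0533 in limma, or 0.0436 with the replicate number as a block. Without Day 2 replicate 1 or Day 2 replicate 2 it was called at the same -1.30 (0.0191 and 0.0174). Relative to the median of all genes it was -0.99, and with median ratio scaling -1.09 with an adjusted p of 0.106.

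Catalase rose through the whole culture. *Cat* (chr2:103453849-103485160, - strand) was at 46.8 and 44.4 FPKM on Day 0, 59.4 and 56.4 by Day 1, 70.2 and 68.0 on Day 2, and 93.1 and 85.9 at Day 3. Each day lay above the day before with no overlap, and by mean level it went from the third of the 28 genes to the first. Its log2 fold change was 0.96 (SE 0.12, limma adjusted p = 6.63e-04), 1.27 above the median of all genes, with 0.98 within replicate 1 and 0.94 within replicate 2. The steps of 0.34, 0.25 and 0.37 did not pass on their own (adjusted p = 0.118, 0.271 and 0.214 in limma).

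The test called few of the *Pex* genes of protein import and membrane assembly. Without *Pex5l*, the 12 genes had a median log2 difference of 0.14 from Day 0 to Day 3, and limma called 1 higher (*Pex2*) and 1 lower (*Pex11a*), beside 12% and 26.3% of all genes. The receptors for enzymes with a C-terminal or an N-terminal import signal, *Pex5* and *Pex7*, ranged from 13.0 to 19.4 and from 6.89 to 13.5 FPKM over the 8 libraries. *Pex7* carries *Agps* and *Phyh* proteins among others, and its log2 difference was 0.43 (SE 0.31, limma adjusted p = 0.302). The docking genes *Pex13* and *Pex14* lay at 7.83 to 11.6 and 7.52 to 18.6 FPKM. The widest pair was *Pex14* on Day 3, with 16.5 and 7.52, and 28.3% of its exonic bases overlap an antisense gene. Its log2 difference from Day 0 was -0.31 (adjusted p = 0.487 in limma), and -0.83 and called without Day 3 replicate 1 (0.0473). *Pex6*, the ATPase that pulls the receptor out of the membrane, stayed between 11.0 and 14.6 FPKM, and its anchor *Pex26* between 2.01 and 4.39. For insertion of membrane proteins, *Pex3* lay between 10.5 and 17.3 FPKM and *Pex16* between 4.70 and 11.8. *Pex19*, the carrier of membrane proteins, had 32.5 FPKM in both Day 0 libraries, 42.2 in both of Day 1, 34.9 and 41.5 on Day 2, and 40.1 and 49.0 at Day 3. All later libraries were above Day 0, and its log2 difference of 0.44 had an adjusted p of 0.0567 in limma, 0.0455 with the replicate block 0.0121 under median ratio scaling (0.75) and 0.0410 without Day 3 replicate 1 (0.58). It was 0.30 within replicate 1 and 0.58 within replicate 2, the replicate with the higher astrocyte sum.

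*Pex2* (chr3:5560188-5576239, - strand), part of the ubiquitin ligase that recycles the import receptor, was at 11.0 and 18.3 FPKM on Day 0, 20.7 and 31.3 by Day 1, 26.4 and 29.8 on Day 2, and 25.5 and 25.3 at Day 3. Day 0 was the low day in both libraries, and the range of Day 1 took in Day 2 and Day 3. Its log2 fold change between Day 0 and Day 3 was 0.79 (SE 0.27, limma adjusted p = 0.0459, 0.0161 with the block), 1.11 above the median of all genes. Within replicate 1 it was 1.14 and within replicate 2 it was 0.44. Without Day 0 replicate 1 the value was 0.45 (adjusted p = 0.265 in limma). It was also not called without Day 2 replicate 1 (0.79, adjusted p = 0.0654), Day 2 replicate 2 (0.79, 0.0655), Day 3 replicate 1 (0.79, 0.116) or Day 3 replicate 2 (0.80, 0.128). The rise was there on Day 1 (0.80), though that step had an adjusted p of 0.0938 in limma and 0.0363 with the block. Its partner in the ligase, *Pex10*, ranged from 5.98 to 11.9 FPKM with a log2 difference of 0.23 (adjusted p = 0.559 in limma).

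*Pex11a* (chr7:79735957-79743131, - strand), which acts in elongation and division of the organelle, was low throughout. It had 3.71 and 4.64 FPKM on Day 0, 4.64 and 1.78 by Day 1, 1.87 and 1.71 on Day 2, and 1.04 and 0 at Day 3. Day 3 was below Day 0 in both libraries, the Day 1 pair was wide apart, and Day 3 replicate 2 was listed at 0. The log2 fold change was -1.85 (SE 0.46, limma adjusted p = 0.0146), -1.54 relative to the median of all genes, with -1.20 within replicate 1 and -2.49 within replicate 2. Without Day 3 replicate 2 it was -1.33 (adjusted p = 0.0825 in limma), and it was also not called without Day 0 replicate 1 (-1.98, 0.0558) or Day 0 replicate 2 (-1.72, 0.0859).

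The widest change of the 28 genes was that of *Pex5l* (chr3:32949408-33143247, - strand). Its protein resembles the import receptor Pex5, but it is best known as TRIP8b, an auxiliary subunit of HCN channels in neurons. *Pex5l* was at 1.54 and 1.65 FPKM on Day 0, 5.59 and 1.79 by Day 1, 7.22 and 7.56 on Day 2, and 39.4 and 46.3 at Day 3. The Day 1 pair differed from each other and came close to Day 0, whereas Day 2 and Day 3 lay apart from all earlier libraries. The mean on Day 3 was 26.8 times that on Day 0. The log2 fold change was 4.07 (SE 0.38, limma adjusted p = 1.73e-04), 4.39 above the median of all genes, and was 3.99 within replicate 1 and 4.16 within replicate 2. By Day 2, 41.5% of this log2 change had occurred. The step to Day 1 was 0.72 (adjusted p = 0.270 in limma), and 1.34 and called without Day 1 replicate 2 (0.0349). The last step, from Day 2 to Day 3, was 2.38 (SE 0.38) with an adjusted p of 0.0558 in limma. That step was called with the replicate block (0.0318), with median ratio scaling (2.42, 0.0490), and without Day 1 replicate 1 (2.38, 0.0285) or Day 1 replicate 2 (2.38, 0.0270). Antisense genes overlap 24 (0.271%) and 340 (3.84%) of its exonic bases, and the 1 of them in the table, *4930419G24Rik*, was at 0 in every library. Of the neuron markers, *Tubb3* had 231 FPKM in replicate 1 and 113 in replicate 2 on Day 3, where *Pex5l* was at 39.4 and 46.3. *Snap25*, *Syt1* and *Rbfox3* were then at 0, 0.969 and 0.305 in replicate 1 and at 1.48, 1.10 and 0 in replicate 2. The part of neuronal RNA in the change was not tested.

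**Figure D5:**
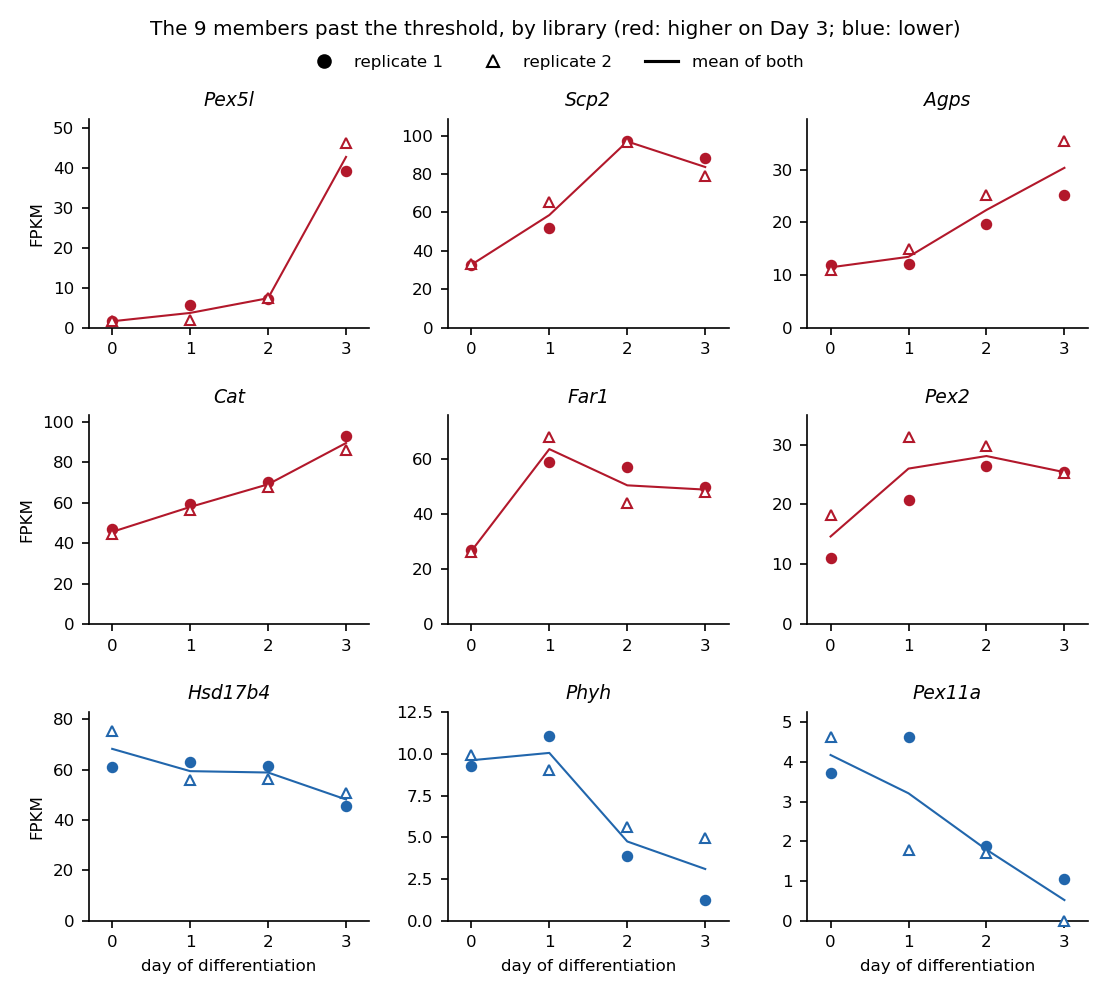
FPKM by day of the 9 genes called from Day 0 to Day 3, 1 panel per gene with its own axis from 0, points for the 2 libraries and a line through the day means. *Cat* and *Agps* climbed on every day, *Far1* reached its highest values on Day 1 (59.0 and 68.1) and *Scp2* on Day 2 (97.4 and 96.4), and most of the *Pex5l* signal appeared on Day 3.

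The order of the genes by level shifted with these changes. On Day 0 the highest means were those of *Hsd17b4* (68.2 ± 9.96 FPKM, SD, n = 2), *Abcd3* (57.7 ± 1.84), *Cat* (45.6 ± 1.67) and *Gnpat* (45.3 ± 0.769). The ranges of mean ± SD overlapped between the first 2 and between the last 2 of these. Both *Hsd17b4* libraries (61.2 and 75.3) nevertheless lay above both of *Abcd3* (56.4 and 59.0). On Day 3 they were *Cat* (89.5 ± 5.06), *Scp2* (83.6 ± 6.85), *Abcd3* (53.5 ± 3.62) and *Gnpat* (49.4 ± 11.2). The ranges of mean ± SD of *Cat* and *Scp2* then overlapped, and so did those of *Abcd3*, *Gnpat*, *Far1* (48.9 ± 1.39) and *Hsd17b4* (48.2 ± 3.90). Both *Abcd3* libraries lay above those of *Far1* and *Hsd17b4*. *Pex5l* moved from rank 26 (1.6 ± 0.0781) to rank 9 (42.9 ± 4.87). At 10 FPKM or more in all 8 libraries were 13 genes, 7 were under 10 FPKM in every library, and 3 (*Pex11a*, *Amacr* and *Pxmp2*) were listed at 0 in at least 1. *Pxmp2*, a channel of the peroxisome membrane, had 2.56 and 6.4 FPKM on Day 0, 0.800 and 0.767 by Day 1, 0.806 and 0 on Day 2, and 0.9 and 4.10 at Day 3, which is about 0 to 8 fragments. Day 1 and Day 2 were below Day 0, yet no step was called, and the membrane protein gene *Pxmp4* ranged from 3.33 to 10.2 FPKM with its widest pair on Day 0.

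By role, the median log2 difference from Day 0 to Day 3 was 0.48 over the 4 ether lipid genes and 0.40 over the 4 of beta-oxidation. For the 13 *Pex* genes it was 0.16, with 2 called higher and 1 lower in limma (12% and 26.3% of all genes). The 1 tested transporter, *Abcd3*, was at -0.11, and the 2 genes of alpha-oxidation and racemization had a median of -1.42. Differences between roles were not tested. Relative to the median of all genes, 11 of the 13 *Pex* genes, 2 of 2 transporters, 3 of 4 beta-oxidation genes and 4 of 4 ether lipid genes lay above it, and 0 of 2 in alpha-oxidation. The 2 transporters include *Abcd2*, which did not pass the filter and was not tested.

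Peroxisome genes outside the 28 were taken as a list of 44, of which 43 were in the table and 37 tested. From Day 0 to Day 3, limma called 7 of the 37 higher (12% of all genes) and 3 lower (26.3% of all genes), and the median log2 difference was 0.15. Median ratio scaling called 11 higher and 2 lower, where it called 2135 and 2047 of all 12208 genes tested. The replicate block called 8 and 4, where it called 1617 and 3551 of all genes. The count of rises was 4 without Day 0 replicate 1, and 1 fall, in place of 3, was called without Day 0 replicate 2. *Idh1*, which makes NADPH in the cytosol and in peroxisomes, had 108 and 98.3 FPKM on Day 0, 224 and 319 by Day 1, 391 and 511 on Day 2, and 300.1 and 235 at Day 3. It was highest on Day 2, and its log2 fold change over the 3 days was 1.36 (SE 0.21, limma adjusted p = 0.00180). *Ech1*, an isomerase of unsaturated chains, went from 20 and 21.5 FPKM to 41.1 and 44.9 (1.02, SE 0.15, limma adjusted p = 0.00118). *Ehhadh*, the other bifunctional enzyme beside *Hsd17b4*, was at 1.52 and 0.271 FPKM on Day 0 and 4.87 and 4.16 on Day 3 (1.62, SE 0.46, limma adjusted p = 0.0250). Its call was lost without Day 0 replicate 2 (1.13, adjusted p = 0.165), Day 3 replicate 1 (1.53, 0.0898) or Day 3 replicate 2 (1.72, 0.0730).

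Of the 3 falls, *Trim37*, a ubiquitin ligase linked to *Pex5*, had 32.1 and 28.1 FPKM on Day 0, 14.6 and 15.1 by Day 1, 10.4 and 13.1 on Day 2, and 10.4 and 9.82 at Day 3. It was high on Day 0 only, with a log2 fold change of -1.48 (SE 0.19, limma adjusted p = 6.38e-04). *Eci2*, an isomerase, went from 56.2 and 67.7 FPKM to 34.0 and 23.6 (-1.10, SE 0.25, limma adjusted p = 0.00909), and was not called without Day 0 replicate 2 (-0.96, adjusted p = 0.0652) or Day 3 replicate 2 (-0.84, 0.0558). The peroxiredoxin *Prdx5* went from 74.9 and 74.6 FPKM to 52.0 and 45.5 (-0.61, SE 0.13, limma adjusted p = 0.00796). With median ratio scaling it was -0.30 (adjusted p = 0.0963), and it was not called without Day 0 replicate 1 (-0.61, 0.0513) or Day 0 replicate 2 (-0.61, 0.0506). In the steps between days, this list had 4 rises and 1 fall on Day 1 (5.04% and 7.56% of all genes), 1 rise on Day 2 (*Lonp2*; 2.16% of all genes) and 0 calls on Day 3 (0.246% and 0.0491% of all genes), where limma had 4 higher and 2 lower at an unadjusted p under 0.05. The counts on Day 1 went down to 1 rise without Day 0 replicate 1, and 2 without Day 0 replicate 2 or Day 1 replicate 2. The fall, *Trim37*, was not called without either library of Day 0 or of Day 1, and *Lonp2* was not called when any 1 of the 8 libraries was left out.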

How the data were processed

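mRNA was measured in 8 libraries of primary mouse OPCs, 2 for each of 4 days, with days and replicate numbers taken from the labels. The authors sequenced stranded mRNA libraries as paired ends, used OmicSoft ArrayStudio for the reads, and deposited FPKM values, 1 column per library, with replicates not pooled. The submitters' processing notes name the build mm10. The aligner, the gene model and the strand setting are not given in the sources used here. The methods name DESeq2, which needs counts and was not run.

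FPKM + 1 was log2 transformed and fitted in R 4.3.3 with limma 3.58.1 (lmFit, eBayes with a trend), with day as a factor over all 8 libraries. Tests were made on the 12208 of 23427 entries that reached 1 FPKM in 2 or more libraries, p-values were adjusted by Benjamini-Hochberg over them, and the threshold was 0.05. The fit was tested on simulated data. Tables and figures were made in Python 3.11.15 (pandas 2.3.3, numpy 2.4.6, matplotlib 3.10.9). Coordinates are those of GENCODE M21 (GRCm38) and promoter windows those of RefSeq (GRCm38.p6), each motif searched on both strands.

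Replicate numbers were checked for pairing: across genes, same-numbered libraries deviated together from the day means with r of 0.25, 0.23, 0.18, 0.29, 0.16 and 0.28 over the 6 pairs of days, where genes are not independent replicates. The numbers of the labels were therefore also fitted as a block. Other alternatives were a pseudocount of 0.1, no filter, FPKM of at least 10 in at least 1 library, the same FPKM sum in each library, median ratio scaling, quantile normalization, eBayes with no trend, a fit of just the 2 days compared, and the omission of 1 library at a time. Depth was estimated from steps between low values, where 52.7% to 62.8% of the low genes of a library lay within 0.04 of a whole number of fragments. It ranged from 952000 to 1526000 fragments.

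Of the 28 genes, those past the threshold and *Pex5l*, *Far1*, *Far2*, *Gnpat*, *Agps*, *Abcd2*, *Abcd3* and *Cat* were named in full, and the rest by range, apart from *Amacr*, *Pex19* and *Pxmp2*, given in full after their values were seen. From each of 4 context lists (other peroxisome genes, plasmalogen completion and breakdown, PPAR regulators, mitochondrial beta-oxidation), up to 4 rises and 4 falls past the threshold whose libraries did not overlap were named. *Etnk1*, *Tmem86a*, *Tmem86b*, *Lonp2*, *Ppara* and *Ppard* were named after their values were seen. The 7 marker lists covered OPCs, OLs, astrocytes, neurons, microglia, endothelial and mural cells. Members and lists were chosen with earlier results of these data known.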

Additional observations from a re-analysis of the deposited data

How the results depend on the processing

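From Day 0 to Day 3, *Pex5l*, *Scp2*, *Agps*, *Far1* and *Cat* were called in all 17 alternatives. The calls of *Pex2*, *Hsd17b4*, *Phyh* and *Pex11a* were lost in 9, 8, 6 and 3 (of 16 for *Pex11a*, which the filter at 10 FPKM removed), and the cause was not tested. Leaving out 1 library at a time gave 5 to 6 rises and 0 to 4 falls, and median ratio scaling and quantile normalization gave 1 fall each. Over Day 1 there were 1 to 2 rises. Over Day 2 there were 0 to 1, and 0 with no filter, with eBayes without a trend and with only the days compared (4, 3 and 2 at an unadjusted p under 0.05 in limma). Over Day 3 there were 0 to 1, and 1 with median ratio scaling and with the replicate block. The F test called 5 to 8. *Abcd3* turned from -0.11 to 0.05 with the same FPKM sum and 0.21 with median ratio scaling. *Gnpat* (0.10) ranged from -0.13 to 0.33 over the left-out libraries and was 0.41 with median ratio scaling.

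The replicate block gave 7 rises (with *Pex19*) and 4 falls (with *Amacr*) from Day 0 to Day 3, and 3 rises over Day 1 (with *Pex2*). Over all 12208 genes tested, the block called 1617 higher and 3551 lower from Day 0 to Day 3, and 744 higher over Day 1. Beyond the calls named with it here and above, it changed no other call of the 28 genes. A day left with 1 library is assumed to vary like the other days, and replicate 2 could not be left out as a whole, since no spread would then be left to fit. Genes under about 5 FPKM rest on few fragments at this depth, so their differences were not measurable beyond the sizes given.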

Other observations

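Among the regulators of peroxisome genes, 8 members of the PPAR, RXR and PGC-1 families were in the table and 5 were tested. In limma 0 were called higher or lower from Day 0 to Day 3, where 12% of all genes rose and 26.3% fell, with 0 higher and 1 lower at an unadjusted p under 0.05. With 5 genes, a count of 0 says little. *Ppard* was the most abundant of the PPAR genes, at 26.3 and 29.4 FPKM on Day 0 and 32.8 and 25.6 on Day 3. *Ppara* was at 1.45 and 0.678 FPKM on Day 0, 1.13 and 0.542 by Day 1, 0.911 and 0.417 on Day 2, and 0 in both Day 3 libraries. Its log2 difference of -1.02 had an adjusted p of 0.0638 in limma and 0.0447 with the replicate block. *Pparg* was listed at 0 in 7 of 8 libraries.

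Mitochondrial beta-oxidation, the pathway that takes over the chains shortened in peroxisomes, had 3 rises and 3 falls among 18 genes tested from Day 0 to Day 3, where 12% of all genes rose and 26.3% fell, with a median log2 difference of -0.04. *Hadh*, the dehydrogenase for shorter chains, was at 14.0 and 19.9 FPKM on Day 0, 16.6 and 21.8 by Day 1, 32 and 42.4 on Day 2, and 51.2 and 60.7 at Day 3 (log2 fold change 1.68, SE 0.23, limma adjusted p = 9.61e-04). *Cpt2*, of the carnitine shuttle, had 8.04 and 8.67 FPKM on Day 0 and 16.8 and 17.8 on Day 3 (0.97, adjusted p = 0.00490 in limma). Both were higher in replicate 2, which had more astrocyte marker RNA, on 4 of 4 days, and within replicates 1 and 2 they changed by 1.80 and 1.56 (*Hadh*) and by 0.97 and 0.96 (*Cpt2*). *Cpt1a*, which opens the shuttle, had 1.52 and 3.22 against 7.25 and 4.61 FPKM (1.06, adjusted p = 0.0482 in limma), and was not called when any library but Day 0 replicate 2 was left out (0.69 to 1.34, adjusted p from 0.0557 to 0.259). *Acads*, the dehydrogenase for short chains, had 10.8 and 13.1 FPKM on Day 0 and 3.92 and 2.23 on Day 3 (-1.69, SE 0.27, limma adjusted p = 0.00195). *Acaa2* had 8.26 and 8.15 against 2.44 and 2.09 FPKM (-1.50, adjusted p = 0.0334 in limma), and was not called without any 1 of the 4 libraries of Day 0 and Day 3 (-1.42 to -1.58, adjusted p from 0.0761 to 0.121) or with median ratio scaling (-1.24, 0.0632). *Etfb* had 46.4 and 33.0 against 23.6 and 25.6 FPKM (-0.65, adjusted p = 0.0352 in limma). Its call was lost without Day 0 replicate 1 (-0.41, adjusted p = 0.224), Day 3 replicate 1 (-0.59, 0.113) or Day 3 replicate 2 (-0.71, 0.0805), and with median ratio scaling (-0.34, 0.219). That scaling called 5 rises and 1 fall in this list, where it called 2135 and 2047 of all 12208 genes tested. The replicate block called 3 and 4, where it called 1617 and 3551 of all genes.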
